A study of Mus musculus with 4 samples.

Results

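The regions described here are clusters of nanoCAGE read starts that were in use both in the fully grown mouse oocyte and in the 2-cell embryo. A cluster joins read starts on the same chromosome and strand that lie at most 20 bp apart over all 11 runs of the series. A stage was called on in a cluster when at least 2 of its runs had 2 or more lines there, a line being 1 placed 25-base read. By this rule 143 clusters were members, of 259863 clusters kept and of 276273 in all. Clusters on chromosomes X, Y and M, and in a fixed 10 kb window of chromosome 17, were dropped. Which stages were on in oocyte and 2-cell embryo chose the members, so the levels at these stages are a description and were not tested.

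The series profiled 4 stages of F1 (C57BL/6J X CBA/H) crosses, namely the fully grown oocyte, the 2-cell embryo at 48 h, the 8-cell embryo at 68 h and the blastocyst at 92 h. No agent or mutation is named in the labels for any stage. NanoCAGE reads the 5′ ends of capped RNA where little material is at hand, and the study followed repeats with it; the read files themselves name no repeat. Each stage is 1 sample with 2 or 3 runs (oocyte, 8-cell and blastocyst runs 1.1, 1.2 and 2, and 2-cell runs 1 and 2), so there were no replicates, and values are given per run with no p-value between stages. How many embryos were pooled, and whether 2 runs of a stage share a pool, is not in the labels.

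A growing oocyte stores RNA for the first days of development, and its transcription stops before maturation. After fertilisation the stored RNA is degraded in large part while the embryo starts to transcribe its own genome, in the mouse mainly at the 2-cell stage. Long terminal repeats carry their own promoters: elements of the MaLR group are known as promoters in the oocyte, and MERVL with its MT2 promoter is known for a burst at the 2-cell stage. A start used in both could carry stored RNA or be transcribed anew, which RNA ends at a single time cannot tell apart. Fewer cells using a start and less RNA per cell cannot be told apart either.

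Runs held between 33473 and 1375332 lines. In the deepest run 3 lines make 0.000218%, in the shallowest 0.00896%. The chromosome 17 window took 0.418% to 17.7% of lines, and ribosomal RNA (rRNA) took 0.807% to 44.9% of the counts in the deposited table of repeat families. The sequencing run is not in the labels and was taken from the start of the read names. By these names oocyte and 2-cell libraries never shared a sequencing run, so that between them the stage cannot be told apart from the sequencing run. Oocyte run 2 and blastocyst run 1.1 stood apart from the other runs of their stage in the share of lines that members held, and 8-cell run 2 in the share of the members called higher at the 2-cell stage, and results that rest on them are given with their single runs. Since the clusters are in mm9 coordinates and the annotation used here is of another build, no gene, repeat or base sequence is attached to a position.

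Few of the starts on in either stage were on in both. Of 259863 clusters kept, the oocyte had 7545 on and the 2-cell embryo 2798. The 143 members were thus 1.90% of the oocyte list and 5.11% of the 2-cell list. Whether this overlap is larger or smaller than unrelated lists of these sizes would give was not tested. Of 7402 clusters on in the oocyte alone of these stages, 95.3% had no line at all in the 2-cell runs, and of 2655 on in the 2-cell embryo alone, 91.5% had none in the oocyte runs. The share of the oocyte list depends on how its runs are weighed. In 85.4% of oocyte clusters run 2 was at least 2-fold below both other runs, and when all 3 oocyte runs had to pass, the oocyte list fell to 737 clusters with 92 members (12.5%). With runs 1.1 and 1.2 summed as 1 run, members were 130 of 1335 oocyte clusters (9.74%).

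Being a member went with the level. Among clusters on in the 2-cell embryo, 1.77% of those with 4 to 9 lines in both 2-cell runs were members, 7.01% of those with 30 to 99 lines, 28.1% with 300 to 999 and 69.6% of the 23 with at least 1000. Among oocyte clusters the share ran from 0.625% at 4 to 9 lines to 10.04% (26 of 259) at 1000 lines or more. At the edge of the rule, 20 members had exactly 2 lines in their second oocyte run, with 4 to 97 oocyte lines in all (median 9.5). Just outside it, 44 clusters on in the 2-cell embryo had 1 line in their second oocyte run, with 2 to 53 oocyte lines (median 4).

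A small number of positions held much of the signal. Members took 3.69%, 5.22% and 34.6% of lines in oocyte runs 1.1, 1.2 and 2, and 16.3% and 15.2% in 2-cell runs 1 and 2. For the 8-cell embryo the shares were 14.8%, 22.4% and 11.7%, and for the blastocyst 4.19%, 12.9% and 12.2%, in the same order of runs. The exact (Clopper-Pearson) 95% interval, for counting error only, was 34.5% to 34.8% in oocyte run 2 and 12.5% to 13.3% in blastocyst run 1.2. The oocyte share therefore rests on run 2, where 5 members held 77.2% of the members' lines. In the 2-cell runs the first 5 held 61.5% and 47.9%.

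Some members were called higher and some lower at the 2-cell stage, and most were called neither. A member was called higher or lower at the 2-cell stage when its mean share of lines differed by a factor of 2 or more between the stages and the runs of the stages did not overlap. By this rule 44 of 143 members were higher at the 2-cell stage (30.8%, against 25.4% of the 11691 clusters on in any stage and 26.3% of the 10200 on in oocyte or 2-cell embryo) and 12 were lower (8.39%, against 8.13% and 9.32%). The rule that chose the members used these same runs, so nothing is read from these shares. The balance also depends on depth and on repeated starts: with all runs thinned to 33473 lines 13.5% of 37 members were higher and 18.9% lower, and with 1 line per position 11.76% of 102 were higher. The other 87 had overlapping runs or differed by less than 2-fold. Over all members the ratio of the 2-cell to the oocyte mean ran from 0.0118 to 711, with a median of 1.47. By these means alone 38 members were at least 10-fold higher at the 2-cell stage and 7 at least 10-fold lower. Of these, 3 of the 38 and 4 of the 7 were called neither, and the 10-fold counts were not taken over all clusters.

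**Figure D1:**
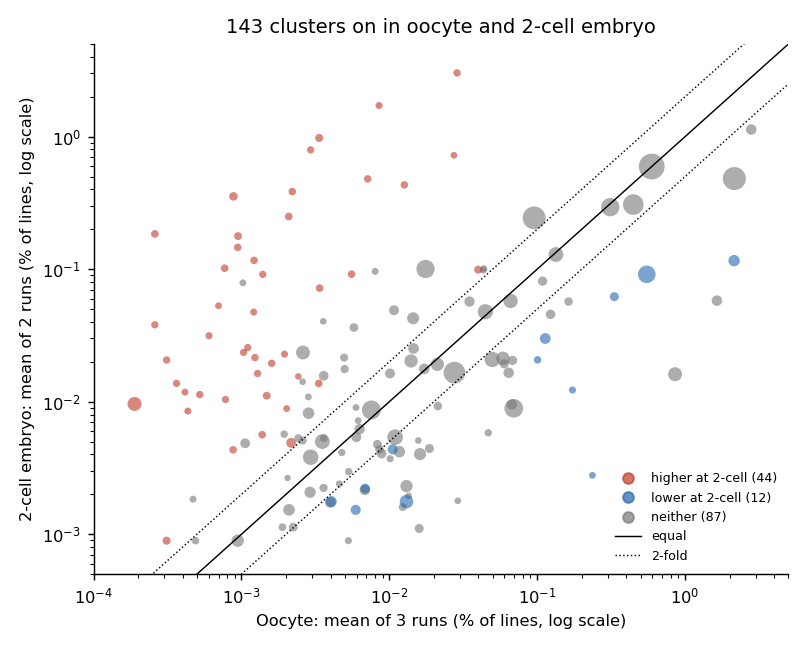
Mean share of lines of each of the 143 members in the oocyte (x, 3 runs) and in the 2-cell embryo (y, 2 runs), both in percent on log scales. Each point is 1 member and its area grows with the width of the cluster; the 44 members higher at the 2-cell stage (red) are small points above the line of equality, while larger points lie mostly nearer to it or below it.

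The 44 members higher at the 2-cell stage were traces in the oocyte. Together they held 0.162%, 0.107% and 0.266% of lines in oocyte runs 1.1, 1.2 and 2. At the 2-cell stage the same clusters held 14.0% and 7.34% of lines, far above each oocyte run. Runs 1.1, 1.2 and 2 of the 8-cell embryo gave them 14.1%, 16.3% and 1.91%, and those of the blastocyst 1.30%, 6.52% and 7.47%. Run 2 of the 8-cell embryo was thus well below its other runs. The medians of the group were 19 oocyte lines, 159.5 2-cell lines and a ratio of 31.3. In 14 of the 44, at least 1 oocyte run had no line.

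The 12 members lower at the 2-cell stage went the other way, with oocyte shares of 1.60%, 2.08% and 7.39% and 2-cell shares of 0.194% and 0.499%. Their 8-cell shares ran from 0.00972% to 0.791%, and their blastocyst shares from 0.325% to 0.693%. The 87 other members held 1.93%, 3.04% and 27.0% of oocyte lines and 2.09% and 7.41% of 2-cell lines. In the 8-cell runs 1.1, 1.2 and 2 they held 0.601%, 5.98% and 9.04%. In the same 8-cell runs the chromosome 17 window held 0.418%, 2.28% and 17.7% of lines and rRNA 0.807%, 3.81% and 26.5% of family counts. In the oocyte runs the window held 9.98%, 13.6% and 17.02% of lines, while rRNA had 44.9%, 14.0% and 10.3% of counts, the reverse order. The part of ribosomal RNA in these members was not tested.

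**Figure D2:**
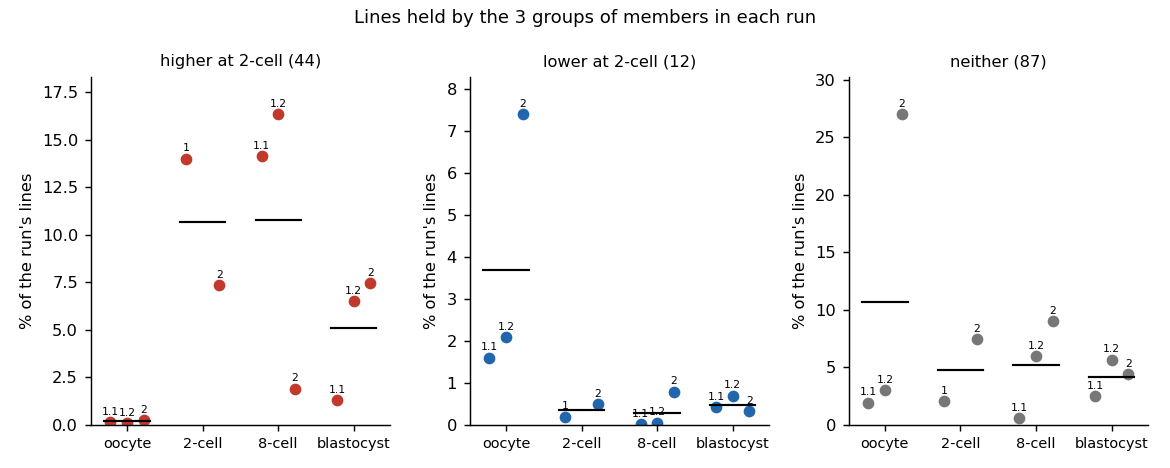
Percent of each run's lines held by the 44 members higher at the 2-cell stage, the 12 lower and the 87 others. Points are runs, with their names, and bars are means of the runs of a stage; oocyte run 2 (7.39% and 27.0%) sets the oocyte mean of the last groups, and 8-cell run 2 (1.91%) lies below the other 8-cell runs in the first.

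The clusters of these groups also differed in shape. The rule set no limit on width, but it counted lines over the whole cluster, so width is not independent of being a member. The groups were split by the same runs, and their shapes are a description. Members higher at the 2-cell stage had a median width of 13 bp (quartiles 10.75 and 15), and 39 of 44 were narrower than 20 bp. Those lower at the 2-cell stage had a median width of 48 bp and the others 43 bp (quartiles 15.5 and 87). Only 1 of the 44 was wider than 50 bp, against 5 of 12 and 39 of 87. Width grows with the number of lines, so the span that holds the inner 80% of lines was also measured per stage in clusters with at least 10 lines there. In 2-cell lines this span had a median of 4 bp in the members higher at the 2-cell stage (43 clusters), 11 bp in those lower (9) and 11.5 bp in the others (74). It was 3 bp in the 1711 clusters on in the 2-cell embryo and not in the oocyte. In oocyte lines it was 3 bp, 5 bp and 10 bp in the same order of groups, and 2 bp in 5494 clusters on in the oocyte and not in the 2-cell embryo. The members higher at the 2-cell stage thus had spans close to those of clusters on in only 1 of oocyte and 2-cell embryo, whatever their later state. The 87 others were broader. Across all 143 members, which are not independent of each other, width and the 2-cell to oocyte ratio had a Spearman correlation of -0.39.

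**Figure D3:**
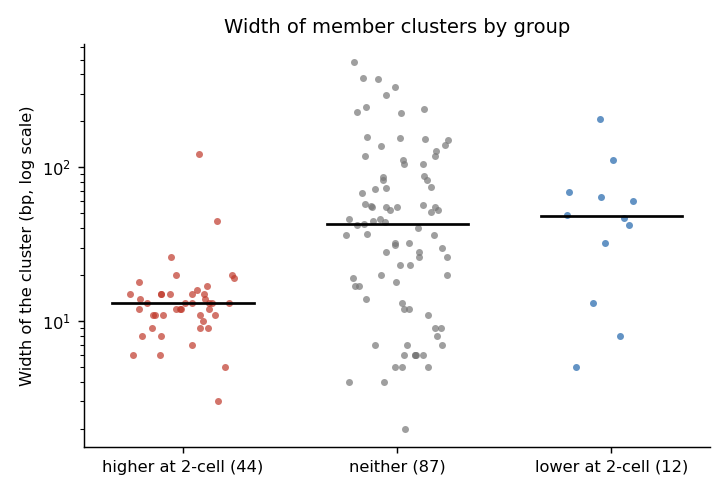
Width in bp (log scale) of the members in the 3 groups, 1 point per cluster, with bars at the medians of 13, 43 and 48 bp. In the first group 39 of the 44 points lie under 20 bp, and points of the second reach 480 bp.

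Among single members, the highest at the 2-cell stage was the cluster at chr11:86272576-86272587 on the plus strand. It had 18, 60 and 356 lines in the oocyte runs and 9470 and 4356 in the 2-cell runs. Its mean share rose from 0.0287% to 3.03%, a ratio of 105.5 (551 without oocyte run 2), and then stood at 0.726% in the 8-cell embryo and 0.536% in blastocysts. The base used most was 86272581 in the oocyte and 86272586 in the 2-cell embryo, a distance of 5 bp within the same cluster.

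The cluster at chr15:91709982-91710001 on the minus strand had 0, 2 and 47 oocyte lines against 2174 and 2196 at the 2-cell stage. No line in oocyte run 1.1 allows a share of up to 0.00110%, for counting error only. The pooled ratio of 2-cell to oocyte lines was 421 (exact 95% interval 318 to 571, counting error only), and both stages used base 91709992 most. Without oocyte run 2 the ratio of stage means moved from 291 to 13433, over 2 oocyte lines. It had 3.82% and 4.02% of lines in 8-cell runs 1.1 and 1.2, but 0.0807% in run 2, and 0.0269% to 0.0478% in the blastocyst. This start was therefore highest at the 8-cell stage in runs 1.1 and 1.2 and fell to the blastocyst with separate runs.

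The cluster at chr9:18036996-18037004 on the plus strand, 9 bp wide, had 1, 4 and 118 oocyte lines and 6878 and 1130 2-cell lines, a ratio of stage means of 202. Without oocyte run 2 its ratio was 5219, over an oocyte mean of few lines, and without 2-cell run 1 or run 2 it was 62.6 or 341. Its later shares (8-cell 0.558%, 0.815% and 0.203%, blastocyst 0.147%, 1.35% and 1.09%) lay above every oocyte run. At chr2:77000448-77000458 on the minus strand there were 4, 8 and 32 oocyte lines and 3144 and 555 2-cell lines. This start was sharp, and base 77000450 took 93.2% of its oocyte lines and 87.3% of its 2-cell lines. Its 8-cell shares were 1.67%, 2.28% and 0.0506%, and its blastocyst runs had 1, 0 and 12 lines, so that 1 run passed and it was off there. Its ratio of 271 was 774 without oocyte run 2 and 89.3 or 452 when 2-cell run 1 or run 2 is left out.

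The largest ratios rested on few oocyte lines. The cluster at chr10:39739181-39739195 on the plus strand had 0, 2 and 3 oocyte lines and 661 and 191 2-cell lines, with a ratio of stage means of 711 and a pooled ratio of 805 (344 to 2486). The cluster at chr12:60173453-60173478 on the minus strand had 2, 6 and 7 oocyte lines and 1367 and 279 2-cell lines. Its ratio was 401, and the pooled ratio 519 (313 to 929). Without oocyte run 2 the ratio of stage means was 2538 for the first and 605 for the second. Without 2-cell run 1 these were 347 and 149, and without 2-cell run 2 1075 and 654. Both stayed on at all 4 stages, with mean 8-cell shares of 0.320% and 0.414% and mean blastocyst shares of 0.101% and 0.0256%.

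Members that were high in the oocyte included broad clusters and a few narrow ones. At chr1:124253746-124253800 on the plus strand, the first member by the mean of both stages, oocyte runs had 661, 7344 and 36133 lines and 2-cell runs 287 and 4541. These are 0.243%, 0.534% and 7.62% of oocyte lines and 0.121% and 2.14% of 2-cell lines, so the stages overlap. With all runs the 2-cell mean was 0.404 of the oocyte mean, but without oocyte run 2 it was 2.91 of it, so its direction depends on that run. Without 2-cell run 2 the 2-cell mean was 0.0433 of the oocyte mean. The cluster at chr11:108873031-108873407 on the plus strand, 377 bp wide, behaved alike: oocyte shares were 0.134%, 0.305% and 6.02%, 2-cell shares were 0.332% and 0.633%, and the ratio was 0.224 with all runs and 2.20 without oocyte run 2. No base of that cluster took more than 16.6% of oocyte lines.

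Of the members called lower at the 2-cell stage, the cluster at chr13:97960497-97960565 on the plus strand had the most oocyte lines: 898, 4774 and 27288 against 216 and 298 at the 2-cell stage. Its mean share fell 18.5-fold, from 2.14% to 0.116%, and without oocyte run 2 the 2-cell mean was 0.342 of the oocyte mean in place of 0.0540. Base 97960504 was used most in both stages, with 75.6% of oocyte and 41.8% of 2-cell lines. At chr16:17222405-17222610 on the minus strand there were 1351, 10353 and 1909 oocyte lines and 156 and 248 2-cell lines, a 6.02-fold fall. Its oocyte share of 0.403% to 0.753% did not hang on run 2. At chr18:8138029-8138033 on the plus strand, only 5 bp wide, the oocyte runs had 788, 5684 and 30 lines and the 2-cell runs 2 and 10. This is the steepest fall of any member, 85.0-fold, and it rested on oocyte runs 1.1 and 1.2. The 2-cell mean was 0.0118 of the oocyte mean, and 0.0188 without oocyte run 1.2, 0.0200 or 0.00357 when 2-cell run 1 or run 2 is left out. The narrow cluster at chr11:108872979-108872986 on the minus strand had 363, 716 and 1584 oocyte lines and 10 and 43 2-cell lines, with base 108872980 used most at all 4 stages. It fell 14.1-fold, to 0.0708 of the oocyte mean, and to 0.132 without oocyte run 2, 0.117 or 0.0244 when 2-cell run 1 or run 2 is left out. The cluster at chr19:13129250-13129360 on the minus strand fell 7.41-fold, from 8, 34 and 160 lines to 5 and 3, and without oocyte run 2 it was no longer called lower.

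A few high members did not pass the rule because the runs of the stages overlapped. The neighbours at chr2:22600366-22600484 and chr2:22600593-22600647 on the plus strand had 12000 and 22799 lines in oocyte run 2. The first had 68 and 159 lines in runs 1.1 and 1.2 and the second 187 and 649, and their 2-cell runs had 16 and 54, and 35 and 214. In both, 2-cell run 1 (0.00675% and 0.0148% of lines) lay below every oocyte run. Their 2-cell run 2 (0.0255% and 0.101%) lay above oocyte runs 1.1 and 1.2. In contrast, the widest member, chr6:3151194-3151673 on the minus strand with 480 bp, was level: 0.442%, 0.580% and 0.761% of oocyte lines and 0.370% and 0.819% of 2-cell lines. It held 1.92% of lines in 8-cell run 2 but 0.0408% and 0.126% in runs 1.1 and 1.2.

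**Figure D4:**
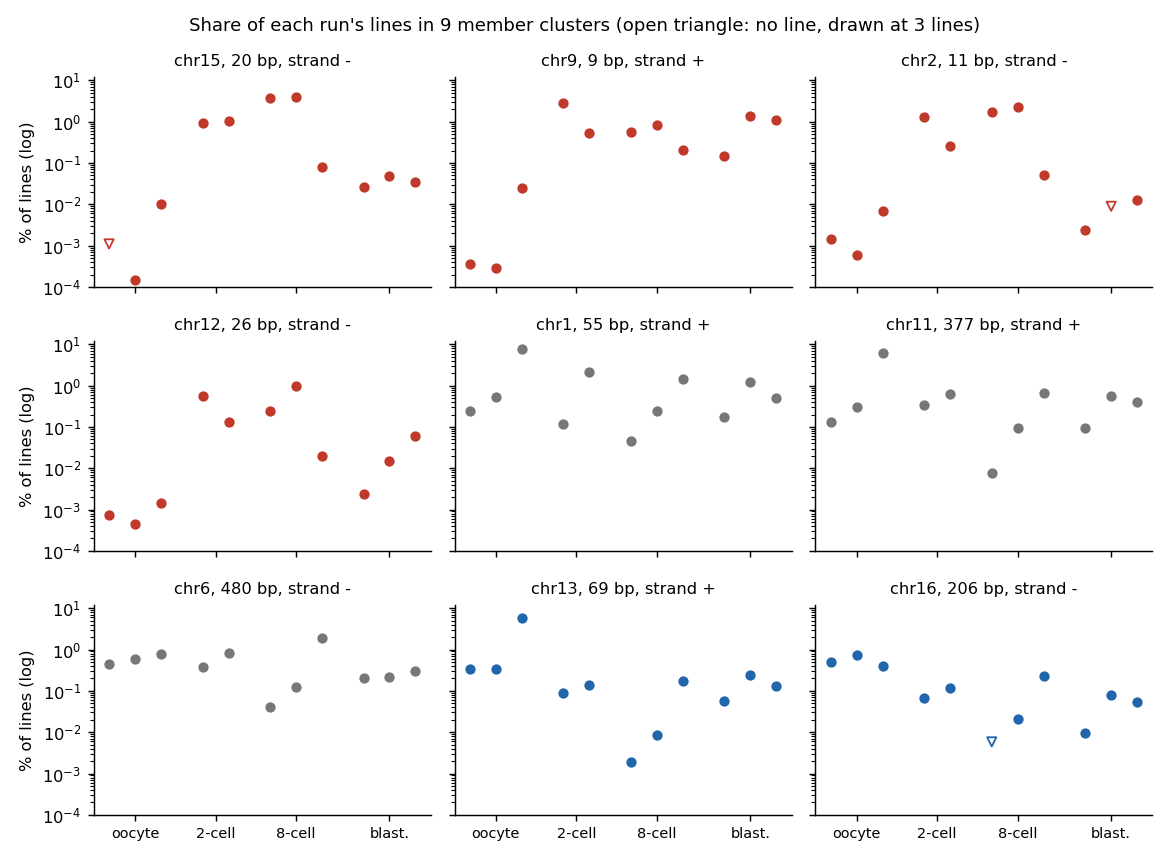
Share of lines, in percent on a log scale, of 9 members in the 11 runs, grouped by stage in the order of run names; an open triangle marks no line and is drawn at 3 lines of that run. In red panels (higher at the 2-cell stage) the 2-cell points lie above all oocyte points, in blue panels (lower) below them, and in grey panels they overlap.

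After the 2-cell stage, which the rule did not use, 92 members (64.3%) were on in 8-cell embryos and 85 (59.4%) in blastocysts. Over all 11691 clusters on in any stage the shares were 20.5% and 5.18%, counts that include clusters on at these stages alone. Of clusters on in the oocyte and not in the 2-cell embryo, 0.297% were on in 8-cell embryos and 0.594% in blastocysts. Of clusters on in the 2-cell embryo and not in the oocyte, 43% were on in 8-cell embryos and 3.54% in blastocysts. Members were therefore on in the blastocyst more often than either list, and this also held when clusters of like 2-cell level were set side by side. With 30 to 99 lines in both 2-cell runs, 23 of 38 members (60.5%) were on in the blastocyst, against 6.75% of 504 others. With 300 to 999 lines all 18 members were on there, against 23.9% of 46 others. At the 8-cell stage the same bins had 73.7% of members and 75.6% of others, and 94.4% and 93.5%. With 10 to 29 lines, 25% of members and 41.2% of others were on at the 8-cell stage, and with 4 to 9 lines 29.4% and 17.8%. From 30 lines on, the difference from other 2-cell starts thus lay mainly in the blastocyst. It is a count of clusters in 1 sample per stage and was not tested.

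**Figure D5:**
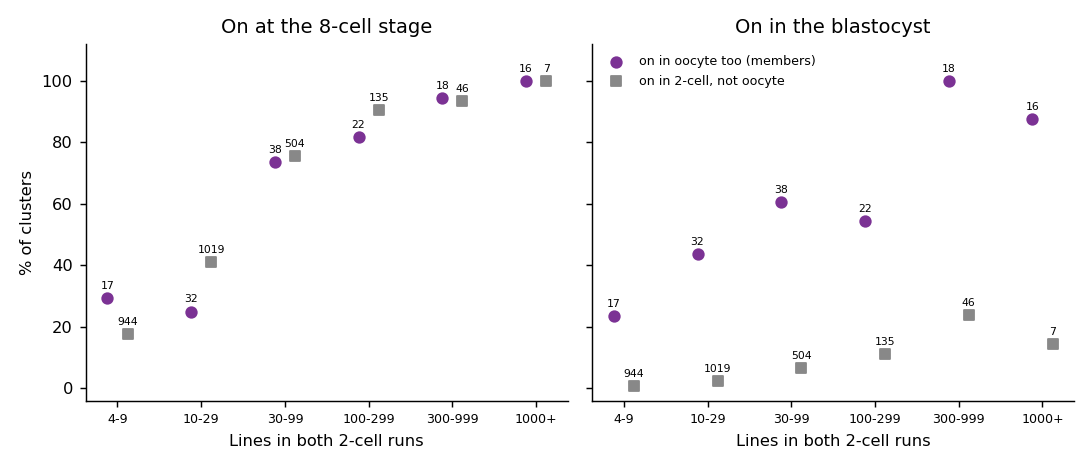
Percent of clusters on at the 8-cell stage (left) and in the blastocyst (right), by the number of lines in both 2-cell runs, for members (circles) and for clusters on in the 2-cell embryo and not in the oocyte (squares); numbers are clusters. Circles and squares lie within 10 percentage points of each other at the 8-cell stage from 30 lines on, and circles lie above squares in every bin of the blastocyst panel.

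Later stages were read less deeply in part, and single runs decide some calls. Without 8-cell run 1.2 or run 2 the share of members on at the 8-cell stage was 42.0% or 41.3%, and 23.1% or 29.7% among the other 2-cell clusters. Without blastocyst run 2, the deepest, 37.8% of members were on in the blastocyst, against 1.66% of the others. Without run 1.1 or run 1.2 these were 46.2% and 2.11%, or 44.1% and 1.81%. With placement scores of at least 20 only, 35.7% of 98 members and 0.941% of the others were on in the blastocyst. Median scores of the blastocyst runs were 16, 32 and 15.

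64 members were on at all 4 stages. They held most of the members' lines in every run, with oocyte shares of 2.56%, 4.23% and 33.1%, 2-cell shares of 14.2% and 12.6%, 8-cell shares of 11.7%, 17.7% and 10.8% and blastocyst shares of 3.55%, 12.5% and 11.4%. Of these 64, 29 were higher at the 2-cell stage than in the oocyte and 6 were lower. Ranked by their lowest stage mean, the first of them included the clusters just described on chromosomes 1, 11 and 6, and 3 others. At chr5:147072590-147072885 on the minus strand the stage means were 0.446%, 0.307%, 0.181% and 0.266% from oocyte to blastocyst. At chr16:57391540-57391768 on the plus strand they were 0.312%, 0.294%, 0.470% and 0.246%. The stage means of the latter hide its runs: oocyte run 2 had 0.911% and runs 1.1 and 1.2 had 0.00625% and 0.0185%, and without run 2 the 2-cell to oocyte ratio changed from 0.941 to 23.7. At chr9:123370940-123371311 on the minus strand they were 0.0953%, 0.244%, 0.189% and 0.112%. These clusters were 296, 229 and 372 bp wide.

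28 members were on in 8-cell embryos and off in blastocysts, and these were narrow, with a median width of 11 bp. Together their mean shares were 0.449% in the oocyte, 1.88% and 2.68% in the embryos of 2 and 8 cells (8-cell runs 0.402% to 4.62%) and 0.0882% in blastocysts. A few clusters held much of this, and chr2:77000448-77000458 alone had 0.794% and 1.34% in the embryos of 2 and 8 cells. The medians of the 28, each taken within its stage, were 0.00346%, 0.0112%, 0.00939% and 0.00175% from oocyte to blastocyst. 11 of the 28 were higher at the 2-cell stage and 1 lower. In contrast, the 21 members on in the blastocyst and off at the 8-cell stage had a median width of 49 bp, and 1 was higher and 5 were lower at the 2-cell stage. All 21 failed the rule at the 8-cell stage, where 19 had a share in run 2 at least 2-fold above both other runs. With the shallow runs 1.1 and 1.2 taken at no less than 3 lines this held for 8, so for the others being off cannot be told apart from depth. All 21 passed the line minimum in 8-cell run 2, with 12 lines at chr4:78419612-78419653 to 2023 at chr5:17282553-17282588. Off at the 8-cell stage therefore means for all 21, the 8 included, that a single run held them.

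The remaining 30 members were off at both later stages and held 0.262% of oocyte and 0.276% of 2-cell lines on average. The highest, at chr13:96093575-96093723 on the minus strand, had 87, 855 and 188 lines in the oocyte runs and 160 and 59 in the 2-cell runs, with overlapping shares of 0.0320% to 0.0622% and 0.0278% to 0.0675%. It had no line in any 8-cell or blastocyst run. In the deepest of these, 8-cell run 2, that allows up to 0.000260% of lines. The cluster at chr11:108873135-108873371 on the minus strand had 30, 245 and 850 oocyte lines, 2 and 36 2-cell lines and 179 in 8-cell run 2. At chr4:122613171-122613176 on the minus strand, 3, 5 and 3 oocyte lines rose to 61 and 170 at the 2-cell stage, a ratio of 75.7 (36.8 to 115 when either 2-cell run is left out). That cluster had 144 lines in 8-cell run 2 and none in the other later runs, so off means here that a single run held it.

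In the step from 2-cell to 8-cell embryo no member was higher by the 2-fold rule with separate runs, against 0.445% of clusters on in any stage and 1.29% of the 3957 on at either of these stages, and 21 were lower (14.7%, against 9.25% and 27%). 14 of these 21 were off at both later stages. These counts rest on single runs: without 8-cell run 2, 14.7% of members were higher and 49.7% lower, without 8-cell run 1.2 23.8% were lower, and without 2-cell run 1 or run 2, which also changes the members, 58.0% or 36.5% were. Runs 2 of the 2-cell and 8-cell embryos shared the read-name prefix F132, which was taken to name 1 sequencing run. Within it the 44 members higher at the 2-cell stage had 7.34% and 1.91% of lines, and 42 of the 44 had the lower share in the 8-cell run. Of all 143 members 93 had the lower share there, and no such count was taken over all clusters. Within the sequencing run of oocyte run 1.2 and 8-cell run 1.2, the same 44 had 0.107% and 16.3% of lines, and 38 were higher at the 8-cell stage. In that of oocyte runs 1.1 and 2 and blastocyst run 1.2 they had 0.162% and 0.266% against 6.52%. These 44 were called from low values in the same oocyte runs and high values in both 2-cell runs, run 2 included. All these comparisons are therefore a description, and the part of the sequencing run in the 2-cell step was not tested.

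From the 8-cell stage to the blastocyst 5 members were higher (3.50%, against 0.342% of clusters on in any stage and 1.35% of the 2812 on at either of these stages) and 10 lower (6.99%, against 5.32% and 19.9%). Without 8-cell run 2 these shares were 22.4% and 18.2%, without blastocyst run 1.2 16.1% were higher, and without 8-cell run 1.1 or blastocyst run 2 12.6% or 15.4% were lower. The 5 were named after their values were seen. They lie at chr1:56838976-56839028 and chr18:80677173-80677185 on the plus strand, chr2:22600366-22600484 on the plus strand, chr2:26976710-26976773 on the minus strand and chr4:78419612-78419653 on the minus strand. The second of these, 13 bp wide, had 4, 2 and 20 oocyte lines, 18 and 8 2-cell lines, 18, 50 and 40 8-cell lines and 40, 21 and 250 blastocyst lines, with stage means of 0.00194%, 0.00568%, 0.0330% and 0.141%. It is a start that was low in the oocyte and had its highest mean in the blastocyst. Of the 10 lower members, 8 were among the 44 higher at the 2-cell stage.

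Set against the oocyte directly, 29 members were higher at the 8-cell stage (20.3%, against 10.7% of clusters on in any stage and 11.7% of the 9823 on in oocyte or 8-cell embryo) and 15 lower (10.5%, against 8.09% and 9.63%). In blastocysts 23 were higher than in the oocyte (16.1%, against 1.22% and, of the 8022 on in oocyte or blastocyst, 1.48%) and 21 lower (14.7%, against 8.45% and 12.3%). The oocyte runs are shared by these comparisons and took part in choosing the members.

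Single runs differed within a stage. 87 members (60.8%) were at least 2-fold higher in oocyte run 2 than in both other oocyte runs, against 7.81% of all oocyte clusters, and 20 (13.99%) were at least 2-fold lower, against 85.4%. The oocyte runs chose the members, so nothing is read from these shares. In 8-cell run 2, 74 members (51.7%) were at least 2-fold above both other 8-cell runs, against 7.15% of clusters on in any stage and 1.63% of those on in the 8-cell embryo, and 40 were at least 2-fold below (27.97%, against 17.3% and 73.5%). Runs 1.1 and 1.2 were shallow, and with their shares taken at no less than 3 lines 41 members were above (28.7%, against 0.676% of clusters on in any stage), a limit chosen after seeing the data. By group, 31 of the 44 members higher at the 2-cell stage (70.5%) were lower in 8-cell run 2 and 6 were higher. That share is near the 73.5% of all clusters on in the 8-cell embryo, so nothing particular to these 44 is read from it. Of the 12 lower members 9 were higher in 8-cell run 2, and of the 87 others 59 were. With the shallow runs taken at no less than 3 lines, 3 of the 44, 8 of the 12 and 30 of the 87 were higher.

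The base used most could be compared in the 117 members with at least 10 lines in both stages. In 55 (47.0%) oocyte and 2-cell embryo used the same base most, in 68 (58.1%) the bases were at most 1 bp apart, and in 13 they were over 20 bp apart. Runs of the same stage differed too. 2-cell runs 1 and 2 had the same base in 28 of 73 members (38.4%) and oocyte runs 1.2 and 2 in 34 of 71 (47.9%). Oocyte runs 1.1 and 2 had it in 25 of 45 (55.6%), while oocyte runs 1.1 and 1.2 had it in 54 of 61 (88.5%). Between single oocyte and 2-cell runs the share was 36.8% to 58.3%. The shares between stages thus lay below that of oocyte runs 1.1 and 1.2 and overlapped with those of the other pairs of runs from 1 stage.

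Members were spread over all 19 autosomes, with 15 on chromosome 1, 11 on chromosome 18 and 2 on chromosome 17. Chromosome 18 held 7.69% of members and 3.52% of all clusters on in any stage. 64 members lay on the plus strand and 79 on the minus strand. 30 members (21.0%) had another member within 500 bp on the same strand, none of them in the group higher at the 2-cell stage, against 20.1% of clusters on in the oocyte and not in the 2-cell embryo and 0.301% of those on in the 2-cell embryo and not in the oocyte, counted within each list. The lists differ in size, which by itself changes how often neighbours occur.

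16 members (11.2%) had another member within 500 bp on the opposite strand, against 32.9% of clusters on in the oocyte and not in the 2-cell embryo and 3.99% of those on in the 2-cell embryo and not in the oocyte, each within its own list. These lists differ in size, so the shares are not alike. With neighbours taken from all clusters on in any stage, the shares were 64.3%, 33.6% and 6.74%, with members highest. The examples that follow were picked after their values were seen. At chr2:64371455-64371469 on the plus strand the oocyte runs had 9, 24 and 55 lines and the 2-cell runs 329 and 94. On the minus strand close by, at chr2:64371475-64371489, they had 3, 5 and 4 lines and 427 and 49. Both were higher at the 2-cell stage, with ratios of 16.5 and 132. In the blastocyst the plus strand had a mean of 0.223% of lines and the minus strand 0.0238%. On chromosome 13 the plus-strand cluster described above overlaps chr13:97960521-97960552 on the minus strand, with 502, 3544 and 2632 oocyte lines and 20 and 245 2-cell lines, and both strands were lower at the 2-cell stage. Strands are those of the placed reads, and their relation to the strand of the RNA is not known here.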

How the data were processed

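NanoCAGE read placements of 4 stages (11 runs) were analysed. The submitters' processing notes name CASAVA and mm9; the treatment of reads with several placements is not given in the sources used here, nor are aligner settings. The authors deposited 1 placed read per line, with a score from 1 to 99 whose scale is not stated and which was not used as a filter. Lines that list the same read again (1.64% to 4.34% per run) were kept. rRNA shares come from the count table deposited by the authors per repeat family, per the file headers 1 column per run.

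Read starts (first base, 1-based) were clustered, counted per run and divided by all lines of the run. Stage values are means of runs with equal weight. Python 3.11.15, numpy 2.4.6, pandas 2.3.3 and scipy 1.17.1 were used, and the steps were checked on simulated starts. These had equal depth and little spread between runs, so they check the code and not how the rules behave in runs as uneven as these. Exact 95% intervals cover counting error only, since lines are reads and not independent molecules.

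Regions were named by rank: the 10 members with the highest mean of both stages, the 5 largest and 5 smallest ratios among called members with at least 100 lines, the 6 on at all stages with the highest lowest mean, and the 3 highest that were off at both later stages. Members, rule and lists were chosen with earlier results of these data known.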

Additional observations from a re-analysis of the deposited data

How the results depend on the processing

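With all settings but one kept, most values stayed within their limits, and those that moved are given here. No paired analysis was possible because each stage is 1 sample and run numbers name repeat runs, so no test between stages was made. With at least 3 lines per run, 18 members were on at the 8-cell stage and off in blastocysts, and members held 13.8% of 2-cell lines. With at least 5 lines there were 76 members (6.73% of the 2-cell list), of which 29 were on at all 4 stages, 16 at the 8-cell stage alone of the later stages, 13 in the blastocyst alone and 18 at neither, and they held 11.2% of 2-cell and 9.39% of 8-cell lines. With every run of a stage required there were 92 members (12.5% of the oocyte and 3.29% of the 2-cell list), 20 on at all stages and 15 at the 8-cell stage alone, with 10.6% of 2-cell and 9.71% of 8-cell lines; 22.8% were higher at the 2-cell stage than in the oocyte and 3.26% lower in blastocysts than in 8-cell embryos.

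With scores of at least 20 only, 33 members were on at all stages, 46 at the 8-cell stage alone, 2 in the blastocyst alone and 17 at neither. They held 14.95% of 2-cell lines, 39.8% were higher at the 2-cell stage and 1.02% higher in blastocysts than in 8-cell embryos. With 1 line per position and run, 14 members were on at the 8-cell stage alone, members were 2.42% and 6.93% of the oocyte and 2-cell lists and held 1.96%, 1.82% and 2.46% of 2-cell, 8-cell and blastocyst lines. In that setting 11.76% were higher at the 2-cell stage, 3.92% lower at the 8-cell than at the 2-cell stage, and 21.3% used the same base most. With all runs thinned to 33473 lines, 37 members were left (2.64% and 6.63% of the lists), with 23 on at all stages, 1 at the 8-cell stage alone, 9 in the blastocyst alone and 4 at neither, and they held 8.35%, 4.56% and 4.32% of 2-cell, 8-cell and blastocyst lines. 13.5% of them were higher and 18.9% lower at the 2-cell stage, and 2.70% lower in blastocysts than in 8-cell embryos. With only the lines left after dropping as the denominator, members held 17.6% of 2-cell lines. Of the settings chosen after seeing the data, counting each read once gave 139 members with 15.03% of 2-cell lines, and summing runs 1.1 and 1.2 gave 9.74% of the oocyte list, with 15.4% of members higher in blastocysts than in 8-cell embryos. The cause of these changes was not tested, except that thinning and higher minimums leave fewer lines by construction.

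Leaving out 1 run at a time gave 100 to 333 members, the most without 2-cell run 1, since 1 run then decides that stage. These were 1.57% to 12.8% of the oocyte and 0.935% to 5.11% of the 2-cell list. On at all stages were 44 to 67, at the 8-cell stage alone 15 to 46, in the blastocyst alone 8 to 41 and at neither 15 to 201. Members held 4.44% to 21.2% of oocyte, 10.98% to 16.5% of 2-cell, 9.999% to 18.6% of 8-cell and 6.998% to 12.5% of blastocyst lines. From oocyte to 2-cell 27.4% to 40% were higher and 8.39% to 16.5% lower, from 2-cell to 8-cell 0% to 14.7% and 10% to 57.96%, and from 8-cell to blastocyst 2.70% to 22.4% and 3.42% to 18.2%. The same base was used most in 38% to 55.4%.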

Other observations

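Some members outside the naming rule, chosen after their values were seen, held most of their lines in 1 run of a stage. At chr7:108712342-108712357 on the plus strand the oocyte runs had 0, 2 and 29 lines and the 2-cell runs 605 and 517, while the blastocyst runs had 3, 5 and 2658. Its blastocyst mean of 0.933% is therefore that of run 2, with 2.78% of lines. At chr3:124109888-124109892 on the minus strand the oocyte runs had 185, 193 and 0 lines and the 2-cell runs 457 and 2655, and 1045 lines in 8-cell run 2 stood against 3 and 9 in runs 1.1 and 1.2. Its base 124109890 took 60.8% of oocyte and 99.3% of 2-cell lines. No line was placed there in any blastocyst run, which allows up to 0.00313% of lines in run 2.

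Any cluster that was on in some stage lay within 500 bp on the opposite strand of 92 members (64.3%). The same held for 33.6% of clusters on in the oocyte and not in the 2-cell embryo and for 6.74% of clusters on in the 2-cell embryo and not in the oocyte.

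Blastocyst run 2 used another base than the other blastocyst runs in nearly all members that could be compared: 2 of 29 shared their most used base with run 1.1 and 2 of 23 with run 1.2, whereas runs 1.1 and 1.2 shared it in 19 of 23.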
